A study of Mus musculus with 4 samples.

Results

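H3K9ac, histone H3 acetylated at lysine 9 and a mark of active promoters, was examined by ChIP-seq at the mouse protocadherin genes. The cells were myeloid-derived suppressor cells (MDSC), which dampen T cell responses, grown from bone marrow. The members were the protein-coding RefSeq genes whose symbol begins with Pcdh, 69 of 21887 protein-coding genes. They comprised 12 single genes on 6 chromosomes and 57 genes of the clustered arrays on chromosome 18, namely 14 in the Pcdha, 22 in the Pcdhb and 21 in the Pcdhg array. The groups compared were senescent MDSC under the condition CM plus romidepsin, a histone deacetylase inhibitor, and senescent MDSC under CM alone. The labels do not expand CM and give neither dose, time, mouse strain nor age, and senescence had been induced in vitro in both. Each condition had 1 immunoprecipitated library, with no replicate and so no test between conditions. The peak list of each library was used, and the 2 input libraries were not analysed here.

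Protocadherins are the largest group of the cadherin superfamily of calcium-dependent adhesion proteins and are best known from neurons. In the Pcdha and Pcdhg arrays each gene has a promoter and a variable exon of its own, which is spliced to constant exons at the far end of the array, whereas the Pcdhb genes have no shared constant exons. A neuron switches on a few promoters of the arrays through CTCF, cohesin and DNA methylation, and the resulting combination of surface proteins allows its branches to recognise each other. The C-type genes at the end of the Pcdha and Pcdhg arrays are under separate control. The single genes include the delta-1 and delta-2 protocadherins of brain and epithelia.

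Markers of the labelled cell type carried H3K9ac. Outside the arrays, where no start site was at hand, either gene end was counted as a start. A peak lay within 1 kb of a start at 14 of 15 myeloid markers with romidepsin and at 13 of 15 in CM, against 63.0% and 50.2% of all protein-coding genes. S100a9 had no such peak in either list, and Ly6g had it with romidepsin only. For genes of other cells in which protocadherins are known, the counts with romidepsin and in CM were 3 and 1 of 10 for neurons, 3 and 1 of 6 for endothelium, and 3 and 0 of 6 for stroma. Of the neuronal markers, Rbfox3, Snap25, Syt1, Map2, Stmn2, Gad1 and Neurod1 had no start peak in either list, although Rbfox3, Map2 and Neurod1 had romidepsin peaks elsewhere in the gene. The romidepsin list was far longer, with 103336 peaks (median fold 2.64), than the CM list, with 16419 peaks (median fold 5.04). Read depth is unknown for both, and fold is the enrichment over background given by the authors' peak caller for each broad region. Each list belongs to its own library, and whether their backgrounds match is not known. Folds and percentiles are therefore ranks within a list and measure no change between conditions.

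Few single protocadherin genes had H3K9ac peaks. With romidepsin, Pcdh1, Pcdh7 and Pcdh17 had a peak in the gene span plus 1 kb on either side, which is 3 of 12 single genes, against 68.3% of all protein-coding genes. In CM, Pcdh1 had a peak, which is 1 of 12, against 53.6% of all genes. A peak in the romidepsin list only was found for 2 of the 12 and for 14.8% of all genes. By gene length, 1 of 5 single genes of 100 kb or more had a romidepsin peak, against 75.1% of all such genes. Of the 5 single genes of 10 to 100 kb, 2 had one, against 79.5%. Neither of the 2 shorter genes had one, against 50.0%. In CM the counts were 0 of 5 (all genes 57.2%), 1 of 5 (64.4%) and 0 of 2 (36.7%) in the same order of length. Of the delta-1 genes 2 of 4 had a romidepsin peak and of the delta-2 genes 1 of 5, whereas none of the 3 other single genes, Pcdh12, Pcdh15 and Pcdh20, had one in either list.

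Pcdh7, a delta-1 gene whose product binds protein phosphatase 1 through its cytoplasmic tail, had the widest peak of the single genes. With romidepsin, a peak of 6041 bp (chromosome 5, 57714150 to 57720190, mm10) covered the start site at 57718081 with a fold of 3.95 and a −log10 q of 6.18. It ranked at percentile 94.6 by fold and 93.6 by length among the romidepsin peaks. A further 5 romidepsin peaks of 397 to 1140 bp began 150.4 to 227.2 kb downstream of the start, inside the gene, with folds of 2.11 to 2.67. In CM no peak was listed in the gene, and the nearest was 3.72 Mb away. The stretch without a CM peak around Pcdh7 measured 8.76 Mb and held 50 romidepsin peaks. Among these 50, the peak over the Pcdh7 start had the highest fold.

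Pcdh17, a delta-2 gene of synapses in corticobasal circuits, had 4 romidepsin peaks and none in CM. The strongest of the 4 (chromosome 14, 84443095 to 84444681, 1587 bp, fold 3.12, −log10 q 3.59) covered the start site at 84443563 and stood at percentile 77.9 by fold. The other peaks measured 423 to 842 bp and were centred 2.44, 3.69 and 10.7 kb downstream of the start, with folds of 2.45 to 3.01. The nearest CM peak lay 2.60 Mb away. In the stretch without a CM peak around Pcdh17, the strongest romidepsin peak (fold 3.67) lay outside the gene. Among equal numbers of strongest peaks, where the romidepsin list is cut to the 16419 peaks with the highest −log10 q, Pcdh17 had no peak and Pcdh1 and Pcdh7 had one. Under this cut 54.5% of all genes had a romidepsin peak in span.

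Pcdh1, a delta-1 gene of airway epithelium, alone among the 12 single genes had a peak in both lists. Its romidepsin peaks lay at both ends of the gene. The peak at the lower end measured 2299 bp (chromosome 18, 38184831 to 38187129, fold 4.08, −log10 q 6.83, percentile 96.2 by fold), and the peak at the upper end 1399 bp (38211496 to 38212894, fold 3.13). The CM peak was short, with 313 bp (38185639 to 38185951, fold 4.00, −log10 q 2.16, percentile 24.4 by fold), and lay wholly inside the romidepsin peak at the lower end. The CM list thus had no peak at the upper end of Pcdh1. Which end holds the start was not analysed here.

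The remaining 9 single genes had no peak in span in either list, and several lay far from any peak. The nearest romidepsin peak was over 100 kb from 7 of the 12 single genes, against 16.7% of all genes, and the nearest CM peak from 10 of 12, against 22.8%. The nearest romidepsin peak was over 1 Mb from 4 of the 12 single genes, against 4.08% of all genes, and the nearest CM peak from 6 of 12, against 4.97%. Pcdh9, a delta-1 gene of 879 kb, was 3.14 Mb from the nearest romidepsin peak and 4.27 Mb from the nearest CM peak. Pcdh10, a delta-2 gene whose product recruits the WAVE actin regulators, was 2.65 Mb and 3.64 Mb away. Pcdh11x, on the X chromosome, was 2193 kb and 7105 kb away. Pcdh20 was 1.04 Mb and 1.05 Mb away. Both Pcdh20 and Pcdh9 fell in the same stretch of 10.7 Mb without a CM peak, in which 12 romidepsin peaks were listed, the strongest with a fold of 2.75. Pcdh10 and Pcdh18 likewise shared a stretch of 8.70 Mb without a CM peak, and Pcdh8 and Pcdh17 shared another of 7.55 Mb. Genes that share a stretch are not separate cases in these counts.

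Other single genes without a peak had 1 closer by. Pcdh18 was 623 kb from the nearest romidepsin peak and 686 kb from the nearest CM peak. Pcdh15, which encodes a component of the tip links of hair cells and spans 1554 kb, was 317 kb from the nearest peak in both lists. Pcdh8, known as arcadlin and induced by neuronal activity, was 105 kb and 178 kb away. Pcdh12, which encodes a vascular endothelial protocadherin, had a peak 11.4 kb away with romidepsin and 12.2 kb away in CM. Pcdh19, an X-linked gene mutated in a human epilepsy, lay just outside the 1 kb limit. Its romidepsin peak (chromosome X, 133691280 to 133691756, 477 bp, fold 2.39, −log10 q 1.61) began 2.29 kb upstream of the start site, and the nearest CM peak was 370 kb away. With a limit of 2.5 kb, Pcdh19 joined Pcdh1, Pcdh7 and Pcdh17.

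**Figure D1:**
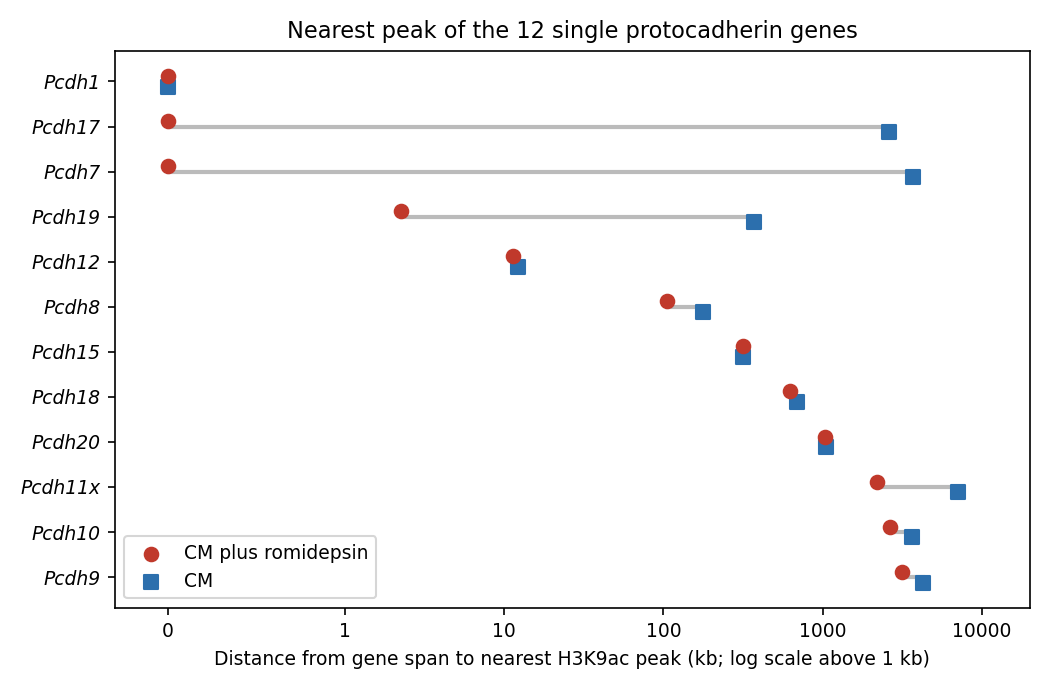
Distance in kb from the span of each of the 12 single protocadherin genes to the nearest H3K9ac peak with CM plus romidepsin (circles) and in CM (squares), on an axis that is linear up to 1 kb and logarithmic above; a distance of 0 means that a peak overlapped the gene. Pcdh7 and Pcdh17 are at 0 with romidepsin and at 3716 and 2603 kb in CM, while Pcdh9, Pcdh10 and Pcdh11x are over 1 Mb away in both.

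Promoter sequences are shown for Pcdh17 and Pcdh7, which had a romidepsin peak over the start site, and for Pcdh10 and Pcdh20, which had none, because CpG-rich promoters carried H3K9ac far more often than others in these lists. They are RefSeq sequences (build GRCm38.p6, the same coordinates as mm10) of 250 bases before to 50 after the start site, written 5′ to 3′ on the strand of the gene, with CpG dinucleotides in capitals. Pcdh17 lies at chr14:84443313-84443612 (plus strand), Pcdh7 at chr5:57717831-57718130 (plus strand), Pcdh10 at chr3:45378148-45378447 (plus strand) and Pcdh20 at chr14:88471347-88471646 (minus strand).
Pcdh17: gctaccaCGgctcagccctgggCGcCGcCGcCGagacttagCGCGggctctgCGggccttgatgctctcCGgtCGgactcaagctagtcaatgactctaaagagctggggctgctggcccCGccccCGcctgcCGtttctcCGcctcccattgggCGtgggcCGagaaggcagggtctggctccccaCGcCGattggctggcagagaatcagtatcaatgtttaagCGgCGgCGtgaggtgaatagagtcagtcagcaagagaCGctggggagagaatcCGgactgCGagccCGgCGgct
Pcdh7: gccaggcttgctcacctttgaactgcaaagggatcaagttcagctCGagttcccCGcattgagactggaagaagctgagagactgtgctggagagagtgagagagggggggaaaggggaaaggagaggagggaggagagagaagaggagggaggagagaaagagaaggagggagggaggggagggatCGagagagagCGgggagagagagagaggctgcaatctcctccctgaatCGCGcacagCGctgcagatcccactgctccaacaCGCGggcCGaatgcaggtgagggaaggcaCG
Pcdh10: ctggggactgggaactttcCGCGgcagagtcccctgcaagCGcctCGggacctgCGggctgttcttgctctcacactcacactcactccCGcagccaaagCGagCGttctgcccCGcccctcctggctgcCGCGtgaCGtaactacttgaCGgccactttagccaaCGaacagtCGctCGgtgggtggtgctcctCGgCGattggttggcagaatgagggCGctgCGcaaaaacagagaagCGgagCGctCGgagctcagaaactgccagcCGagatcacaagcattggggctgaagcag
Pcdh20: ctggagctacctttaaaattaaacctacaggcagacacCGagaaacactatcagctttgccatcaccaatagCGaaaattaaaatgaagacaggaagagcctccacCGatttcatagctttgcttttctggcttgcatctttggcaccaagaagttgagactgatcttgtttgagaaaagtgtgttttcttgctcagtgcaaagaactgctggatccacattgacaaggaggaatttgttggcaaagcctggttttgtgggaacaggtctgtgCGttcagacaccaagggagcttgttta

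Most CpG-rich promoters had a peak, but most CpG-rich promoters of the single protocadherins with a sequence had none. For Pcdh1, Pcdh11x, Pcdh12 and all array genes no promoter sequence was at hand, so they are not counted here. Of the 9 single genes with a promoter sequence, 2 had a romidepsin peak within 1 kb, against 63.4% of all promoters, and 0 a CM peak, against 50.5%. Over 21263 promoters of protein-coding genes the median was 13, with 20 among those with a romidepsin peak within 1 kb and 3 among those without. Of the promoters above the median, 89.5% had a romidepsin peak and 80.2% a CM peak, against 38.4% and 22.0% of the others. Of the 9 protocadherins, 6 were above the median. The promoter of Pcdh17, with 26 CpG, had the only romidepsin peak among these 6. Pcdh10 with 24, Pcdh18 with 23, Pcdh19 with 18, Pcdh9 with 18 and 19 at its neighbouring start sites, and Pcdh8 with 14 CpG had none. Of the 3 at or below the median, Pcdh7 with 11 CpG had a peak, and Pcdh15 with 8 and Pcdh20 with 4 had none. Some start sites lay inside the gene span, and CpG at the outer gene ends was not counted. The site of Pcdh7 was 57718081, whereas its span began at 57716145. For Pcdh15 the site was 73821867 and the span began at 73096277. The tetranucleotide CGCT, the core of an element known from the promoters of the arrays, was searched on both strands; it overlaps CpG and occurred in the promoters of all 9 genes and in 69.5% of all promoters.

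**Figure D2:**
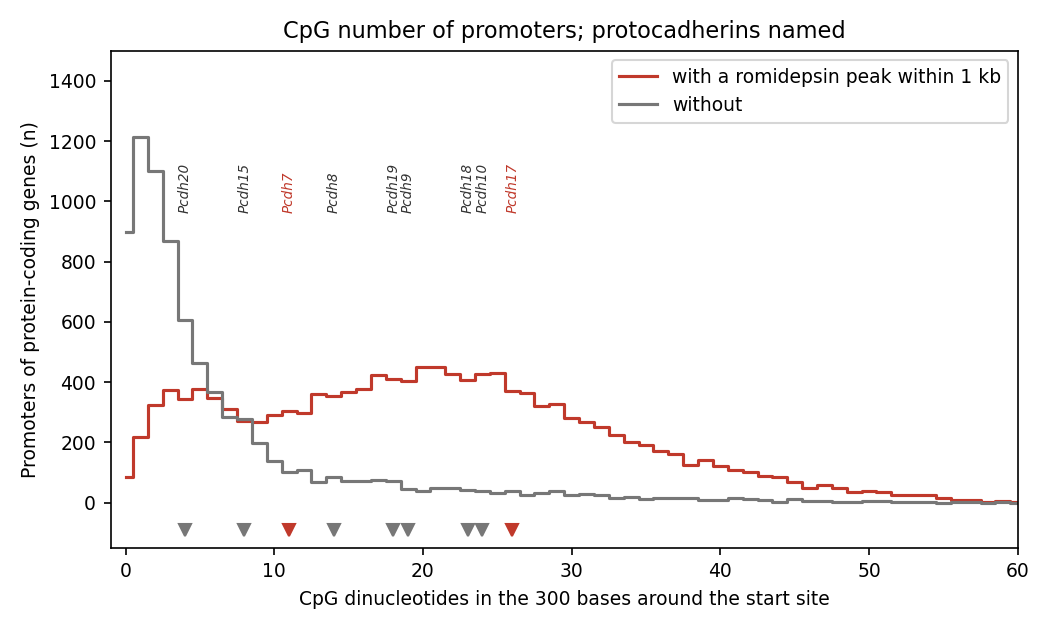
Number of protein-coding promoters (y axis) by CpG count in the 300 bases around the start site (x axis), for promoters with a CM plus romidepsin peak within 1 kb (red line) and without (grey line). Triangles and names mark the single protocadherins with a promoter sequence, in red where a romidepsin peak was present (Pcdh9 at its site with 19 CpG). Pcdh10 and Pcdh18, with 24 and 23 CpG, have no peak although most promoters of that CpG count have one.

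The Pcdha and Pcdhb arrays had no H3K9ac peak in either condition. The Pcdha array (chromosome 18, 36930285 to 37188897, 258.6 kb) and the Pcdhb array (37264998 to 37521419, 256.4 kb) had 0 peaks with romidepsin and 0 in CM, so that 0 of 14 and 0 of 22 genes had a peak under either rule. Of all genes, 68.3% with romidepsin and 53.6% in CM had a peak in span, and 63.0% and 50.2% had one within 1 kb of a start. The C-type genes Pcdhac1 and Pcdhac2 were among the Pcdha genes without a peak. The stretch without a peak ran over 838.1 kb with romidepsin (36803735 to 37641798) and 840.2 kb in CM (36802969 to 37643214), and held all 36 Pcdha and Pcdhb genes. Of 103311 gaps between neighbouring romidepsin peaks in the genome, 510 were at least as long, or 0.494%. Of these, 18 were on chromosome 18. In CM, 657 of 16395 gaps were at least as long, or 4.01%, with 24 on chromosome 18. The median gap was 1377 bp with romidepsin and 29918 bp in CM, so these are shares of gaps and not of the genome. Each Pcdha and Pcdhb gene lay over 100 kb from the nearest peak in both lists. So did 16.7% of all genes with romidepsin and 22.8% in CM. Both lists had a peak at each boundary of the stretch. The romidepsin peak before it, within 1 kb of Zmat2, had a fold of 4.75 (percentile 99.7 in its list), and the CM peak inside it had 5.84 (percentile 70.0). The peak after it, at Taf7, which encodes a TFIID subunit and lies between the Pcdhb and Pcdhg arrays, had a fold of 3.58 with romidepsin (percentile 89.0) and 6.68 in CM (percentile 89.8). Peak numbers ran without a break in both lists, so that no numbered peak had been taken out of this stretch. Filtering before the peaks were numbered would leave no break and cannot be seen in this way. The variable exons of an array resemble one another, and how reads with several matches were treated is not given in the sources used here. The part of this in the lack of peaks was not tested.

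**Figure D3:**
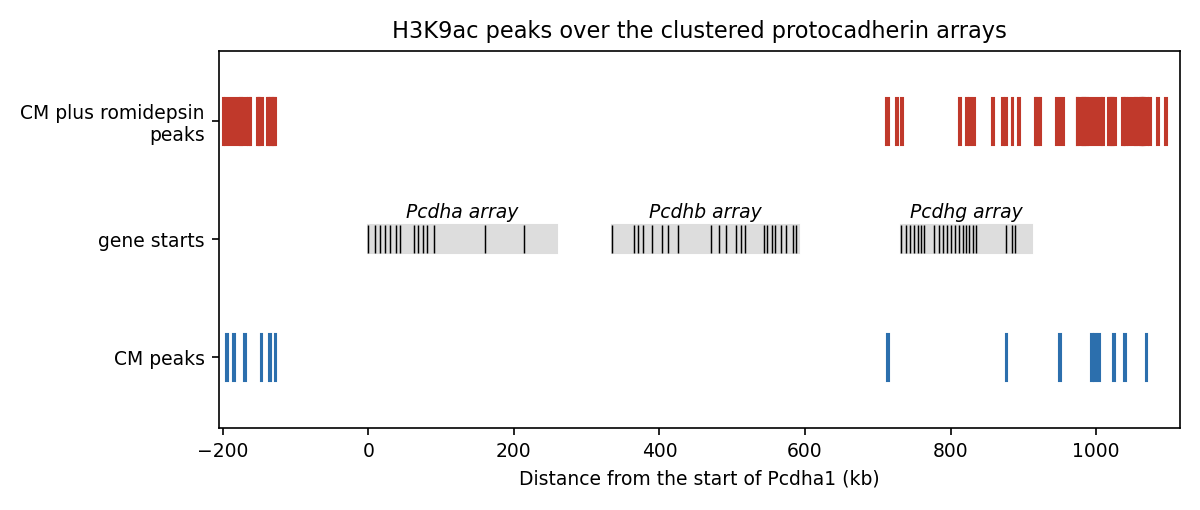
Peaks with CM plus romidepsin (top row) and in CM (bottom row) by distance from the start of Pcdha1 in kb, with the arrays as grey bars and gene starts as black ticks between them; narrow peaks are drawn wider than to scale so that they stay visible. No peak lies over the Pcdha or Pcdhb array in either row, and the Pcdhg array has 10 peaks with romidepsin and 1 in CM.

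The Pcdhg array (chromosome 18, 37661775 to 37841873, 180.1 kb) did have peaks, 10 with romidepsin and 1 in CM. This was 5.49 peaks per 100 kb with romidepsin and 0.549 in CM, against 6.68 and 1.33 over the merged spans of all protein-coding genes. The peaks covered 6.32% of the array with romidepsin and 0.660% in CM, against 13.7% and 1.95% of those spans. Counted over whole spans, 21 of 21 Pcdhg genes had a peak with romidepsin and 19 of 21 in CM, because the genes overlap up to their shared constant exons. Counted within 1 kb of a start, 6 of the 57 array genes had a peak with romidepsin, against 63.0% of all genes, and 1 of 57 in CM, against 50.2%. All of these were Pcdhg genes.

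The strongest peaks of the array lay at C-type genes. Pcdhgc3 had a romidepsin peak of 3297 bp over its start (37805175 to 37808471, fold 4.04, −log10 q 6.95, percentile 95.8 by fold). It was also the array gene with a CM peak, of 1201 bp (37806041 to 37807241, fold 3.74, −log10 q 1.80, percentile 14.5 by fold), which lay wholly inside the romidepsin peak. Pcdhgc4 had a romidepsin peak of 2089 bp over its start (37814263 to 37816351, fold 3.56, −log10 q 4.80) and none in CM. Pcdhgc5 had no peak within 1 kb of its start, and a romidepsin peak of 2330 bp (fold 2.77) began 3.99 kb downstream of it. In mice Pcdhgc4 is required for neuronal survival.

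Among the A- and B-type Pcdhg genes, short romidepsin peaks lay at or next to the starts of 4. At Pcdhgb7 the peak (37751618 to 37752147, 530 bp, fold 2.84) began 1 base before the annotated start, and at Pcdhgb6 (37742096 to 37742775, 680 bp, fold 2.59) it began 2 bases after it. At Pcdhga1 the peak (37661812 to 37662104, 293 bp, fold 2.38) began 37 bases after the start and at Pcdhga11 (37755954 to 37756262, 309 bp, fold 2.44) 181 bases after it. None of these 4 genes had a CM peak within 1 kb of its start. Another peak (37761254 to 37762501, 1248 bp, fold 2.37) covered the start of Pcdhgb8, a transcribed pseudogene in this annotation and no member. In all, 7 of the 10 romidepsin peaks of the array had at least 1 base within 1 kb of a start. That zone makes up 24.2% of the bases of the array, which is not the share of peaks that would touch it. The other 3 romidepsin peaks had folds of 2.23, 2.80 and 2.77, with the first 2 between Pcdhga12 and Pcdhgc3.

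The A- and B-type peaks lay in the lower and middle ranks of their list by fold. Their percentiles by fold among the romidepsin peaks ran from 22.1 at Pcdhga1 to 64.6 at Pcdhgb7, and 293 bp is the shortest length in that list. Among equal numbers of strongest peaks, Pcdhgc3 and Pcdhgc4 were the array genes with a romidepsin peak at the start. This is 2 of 57, against 50.7% of all genes. That cut leaves the CM list whole, so its result, with Pcdhgc3 the 1 array gene with a CM peak, could not change. A romidepsin peak of 894 bp (37655348 to 37656241, fold 3.11) lay outside any gene between Taf7 and the array, 5.53 kb before the start of Pcdhga1. Beyond the array, Diaph1, a formin gene, and Hdac3, a deacetylase gene, had peaks in both lists.

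**Figure D4:**
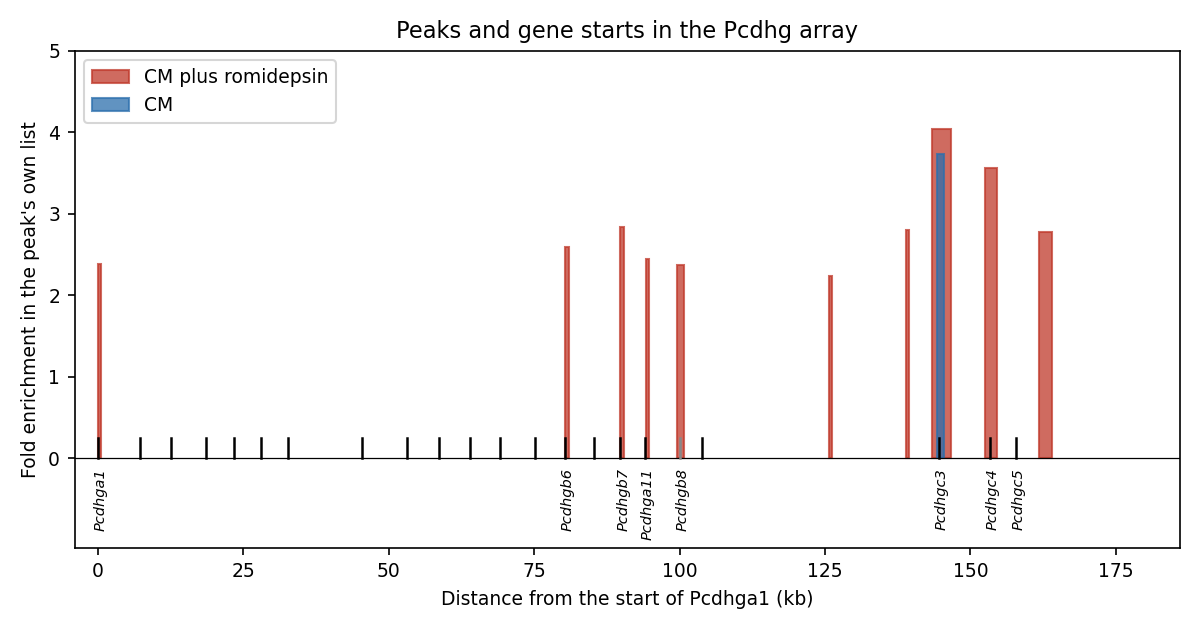
Peaks of the Pcdhg array by distance from the start of Pcdhga1 in kb (x axis) and fold enrichment within their own list (y axis), with CM plus romidepsin in red and CM in blue; narrow peaks are drawn wider than to scale, ticks mark gene starts (Pcdhgb8 in grey), and genes with a start peak and Pcdhgc5 are named. The highest romidepsin peaks, at 4.04 and 3.56, lie over Pcdhgc3 and Pcdhgc4, and the CM peak lies at Pcdhgc3.

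Genes that act on protocadherins mostly had peaks in both conditions. Regulators of the arrays had a peak within 1 kb of a start at 19 of 19 genes with romidepsin and 17 of 19 in CM, against 63.0% and 50.2% of all genes. These peaks had a median fold of 4.01 and 6.21, against 3.86 and 5.79 for all genes with such a peak. Ctcf, the boundary factor that binds array promoters, had a fold of 4.21 with romidepsin and 6.34 in CM. Hdac3 had the highest romidepsin fold, 4.80, in a peak that also covered Rell2, and Smchd1, a chromatin protein that silences the arrays, had the highest CM fold, 7.13. Nipbl, the cohesin loader, and Rad21, a cohesin subunit whose romidepsin peak also covered Gm52217, had no CM peak at a gene end, but each had 1 elsewhere in the gene. Binding partners and processing enzymes had a start peak at 17 of 17 genes with romidepsin and 15 of 17 in CM. The highest romidepsin fold was at Cyfip1, a subunit of the WAVE complex (5.05), and the highest CM fold at Taok2, a kinase (7.49), whose romidepsin peak also covered Tmem219. Nckap1, another WAVE subunit, and Ret, a receptor kinase, had a romidepsin peak only. Nckap1l, the blood cell form of Nckap1, had a peak at a gene end in both lists.

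Other members of the cadherin superfamily had a start peak at 10 of 29 genes with romidepsin (34.5%) and at 3 of 29 in CM (10.3%). Of all protein-coding genes, 63.0% had one with romidepsin and 50.2% in CM. Of the single protocadherins 3 of 12 had one with romidepsin and 1 of 12 in CM, and of the array genes 6 of 57 and 1 of 57. For Pcdh1, the 1 in CM, and for Cdh1, Dchs1, Celsr1 and Cdh5 no start site was at hand. A peak at either gene end was counted for these, so it need not lie at the start. In both lists, Celsr2 had a peak at its start site (fold 4.98 with romidepsin and 4.84 in CM). Cdh1, which encodes E-cadherin (3.51 and 5.01), and Dchs1 (3.54 and 7.19) had a peak within 1 kb of a gene end. The Dchs1 peaks lay at the end of the gene next to Tpp1: the romidepsin peak reached into both genes, and the CM peak overlapped Tpp1 and lay within 1 kb of Dchs1 without covering it. Those with a start peak in the romidepsin list only were Fat4, Celsr1, Clstn1, Clstn3, Cdh5, Cdh23 and Cdhr5, with folds of 2.37 to 3.54, and Cdh23 and Cdhr5 had CM peaks elsewhere in the gene. The differences between these shares were not tested.

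**Figure D5:**
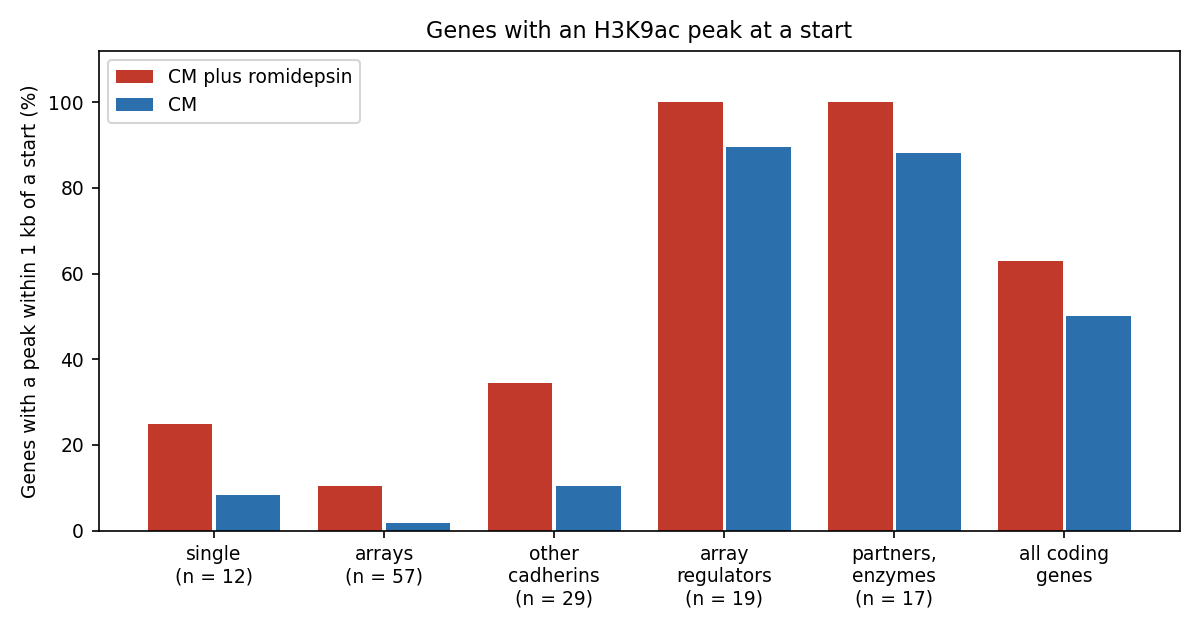
Percentage of genes with an H3K9ac peak within 1 kb of a start with CM plus romidepsin (red) and in CM (blue), for single and array protocadherins, other cadherins, array regulators, partners and processing enzymes, and all protein-coding genes, with both gene ends used where no start site was at hand. Both protocadherin groups, at 3 of 12 and 6 of 57 genes with romidepsin and 1 of 12 and 1 of 57 in CM, are below all genes, against 63.0% and 50.2% of all genes.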

How the data were processed

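H3K9ac ChIP-seq of 2 immunoprecipitated MDSC libraries was used. Per the submitters' processing notes, Bowtie2 (2.4.4), MACS2 (2.2.7.1) and deepTools (3.5.1) were used with build mm10. Settings, read filters and the use of the input as control are not given in the sources used here. The authors deposited 1 list of broad peaks per library. Each deposited peak has a score, which was not used, a fold enrichment (ratio) over background, and p- and q-values on the −log10 scale, all from the authors' caller. Depth is unknown.

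Positions were written with a first base numbered 1. Genes came from RefSeq (GRCm38.p6, 21887 protein-coding genes outside the mitochondrial genome). Start sites came from the RefSeq promoter table for 17492 genes. For the array genes the lower end was used, since genes of the Pcdha and Pcdhg arrays share their upper end, and for the other 4338 genes both ends. Exons were not used. The 3 genes Gm37013, Gm38666 and Gm38667, annotated as joining Pcdha to Pcdhg exons, were no members by symbol. An overlap of 1 bp counted as a peak in span or in a window of 1 kb. Overlap counting was tested on simulated data. Python 3.11.15 with pandas 2.3.3 and numpy 2.4.6 was used. All single genes, array genes with a start peak, C-type genes, and listed genes that lacked a peak or were strongest were named by rule. Ctcf and Nckap1l, the neuronal markers without a peak, and the cadherins with a peak were chosen after their values were seen. The split at the median CpG count was also chosen after the data were seen. The members and lists were chosen with earlier results of these data known. Alternatives covered thresholds on −log10 q and fold, overlap, windows, equal numbers of strongest peaks and merging of peaks.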

Additional observations from a re-analysis of the deposited data

How the results depend on the processing

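The counts depended mainly on how strong a peak had to be. Over 9 alternatives for single genes, array starts and regulators with partners, and 6 for peaks in the arrays, 47 of 66 counts stayed within 1.5 times the reported one. Some of these could not fall: equal numbers of strongest peaks leave the CM list whole, and merging peaks cannot lower a count of genes. Of the 3 single genes with a romidepsin peak in span, 1 (Pcdh1) remained at a fold of at least 4 (26.1% of all genes), and the 1 in CM became 0 at a −log10 q cut-off of 5 (32.4%). The 6 array genes with a romidepsin start peak became 2 with equal numbers of strongest peaks (50.7% of all genes) and at a fold of at least 3 (55.2%), and 1 at a fold of at least 4 (23.5%) or a −log10 q cut-off of 5 (46.3%). The 10 romidepsin peaks in the arrays became 6 at a −log10 q cut-off of 2, 2 with equal numbers and at a fold of at least 3, and 1 at a fold of at least 4 or a −log10 q cut-off of 5. These cuts shorten the whole romidepsin list too. In that list a −log10 q of 2.00 stood at percentile 38.3 and one of 4.88 at percentile 87.6. A fold of 3.01 stood at percentile 73.4 and one of 4.00 at percentile 95.3. Equal numbers kept 16419 of 103336 peaks. In CM the 1 array gene and 1 array peak became 0 at −log10 q cut-offs of 2 and 5 and at a fold of at least 4, where 48.3%, 30.5% and 47.5% of all genes had a start peak. The 36 regulators and partners with a romidepsin start peak became 17 at a fold of at least 4 and 12 where at least as much of a peak had to lie inside the window as outside it. The share of all genes fell likewise, to 23.5% and 26.9%, against 63.0% as reported. No paired analysis was possible because each condition had 1 library. Depth, which is unknown, limits what the absence of a peak shows.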
